A study of Homo sapiens with 6 samples.

Results

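The 10 genes described here encode transcription factors that set the epithelial or mesenchymal state of a cell, ZEB1, ZEB2, SNAI1, SNAI2, TWIST1, TWIST2, PRRX1 and FOXC2 on the mesenchymal side and GRHL2 and OVOL1 on the epithelial side. They were chosen by name, as the rows of the gene table that carry their symbols, and each matched 1 of the 74852 genes listed. PolyA-enriched RNA was sequenced from MDA-MB-231 cells, an established triple-negative breast cancer (TNBC) line with a mesenchymal shape, after transfection with siRNAs. Cells of the si-CTRL group (n = 3 libraries) received non-targeting siRNAs and cells of the si-NEK2 group (n = 3) received a pool of siRNAs against NEK2, a serine/threonine kinase of the centrosome and mitotic spindle that is also found in the nucleus. All cells went through 2 rounds of transfection and, per the labels, were collected 24 h after the second, although the methods of the study give a longer interval. All libraries come from this line alone, and neither separate cultures behind the replicates nor the dates of transfection and sequencing are given in the sources used here, so that p-values measure the spread between these libraries.

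During epithelial to mesenchymal transition (EMT), epithelial cells lose their junctions and polarity and gain motility. Zinc finger proteins of the Snail (SNAI1, SNAI2) and ZEB families bind E-box sequences in promoters of junction genes such as CDH1, which encodes E-cadherin, and repress them through corepressor complexes. The TWIST1 and TWIST2 proteins are basic helix-loop-helix factors, PRRX1 is a homeobox factor and FOXC2 a forkhead factor that act in mesenchyme during development and are turned on in EMT. GRHL2, a Grainyhead factor, and OVOL1, a zinc finger factor, maintain epithelial genes and counteract ZEB1, which in turn represses GRHL2. The ZEB factors and the microRNAs of the miR-200 family repress each other, so that cells tend to hold 1 of the 2 at a high level.

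The sequences through which miR-200 family members recognise ZEB1 and ZEB2 are shown because they set these transcripts apart from the other factors. The mature microRNAs fall into 2 groups by their seed, bases 2 to 8, in capitals, with AACACUG in the first pair and AAUACUG in the other 3 (RefSeq, GRCh38.p14, plus strand, 5′ to 3′).
hsa-miR-141-3p (chr12:6964155-6964176): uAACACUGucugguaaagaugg
hsa-miR-200a-3p (chr1:1167916-1167937): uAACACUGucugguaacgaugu
hsa-miR-200b-3p (chr1:1167160-1167181): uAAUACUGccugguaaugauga
hsa-miR-200c-3p (chr12:6963742-6963764): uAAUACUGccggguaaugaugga
hsa-miR-429 (chr1:1169055-1169076): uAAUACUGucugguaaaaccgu
The 7 bases that pair with these seeds, CAGTGTT and CAGTATT, occurred 9 times in the longest annotated 3′ UTR of ZEB1, which has 2552 bases, and 9 times in that of ZEB2, which has 5373 bases. CAGTATT accounted for 6 of the matches in ZEB1 and 5 of those in ZEB2. SNAI2 held 1 CAGTATT and GRHL2 held 1 CAGTGTT, and the 3′ UTRs of SNAI1, TWIST1, TWIST2, PRRX1, FOXC2 and OVOL1 held none of either. Of 19002 genes with an annotated 3′ UTR, 28.4% held at least 1 such match and 0.0316% held at least 9. Mature microRNAs are not captured by polyA selection, and the rows for MIR200A, MIR200B, MIR200C, MIR141 and MIR429 were listed at 0 in all 6 libraries, so that the level of the family was not measured.

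The Snail and ZEB proteins bind the E-box CACCTG, which reads CAGGTG on the other strand. Among windows of 250 bases before the listed start sites of all genes, 17.5% of 35116 held it on either strand. For ZEB1, 2 of 7 start sites had this motif in their window, and it is in capitals in the window of the most upstream start, 57 bases before it (RefSeq, GRCh38.p14, in the direction of transcription). The single window of ZEB2 held none, nor did those of TWIST2 and PRRX1. Windows for the other factors were not available. Such a match is a description of the letters and not a binding site.
ZEB1 (chr10:31318167-31318416, plus strand): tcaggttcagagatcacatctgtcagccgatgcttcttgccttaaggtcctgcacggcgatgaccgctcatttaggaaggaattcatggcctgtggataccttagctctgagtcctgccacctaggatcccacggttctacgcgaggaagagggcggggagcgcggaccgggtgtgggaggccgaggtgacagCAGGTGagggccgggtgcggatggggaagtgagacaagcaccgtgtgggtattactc
ZEB2 (chr2:144520120-144520369, minus strand): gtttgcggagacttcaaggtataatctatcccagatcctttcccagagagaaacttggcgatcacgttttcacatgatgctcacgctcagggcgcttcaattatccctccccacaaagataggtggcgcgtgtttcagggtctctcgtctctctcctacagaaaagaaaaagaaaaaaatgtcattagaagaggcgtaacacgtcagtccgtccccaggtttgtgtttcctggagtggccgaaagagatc

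Levels are given as normalized counts, which are read numbers per gene scaled by the size factors that DESeq2 gave the libraries. The libraries held between 52625492 and 87454509 reads, each read corresponded to 0.818 to 1.25 normalized counts, and a value of 0 leaves room for up to 3 reads. NEK2 itself stood at 3702, 3323 and 3290 normalized counts in si-CTRL and at 284, 362 and 388 in si-NEK2, so that 10.0% of its level remained. On the second principal component, with 16.2% of the variance, si-CTRL replicate 1 stood at 38.9 and the other si-CTRL libraries at -26.1 and -21.2. The changes of ZEB1, ZEB2, SNAI2, FOXC2 and SNAI1 are therefore given without this library too. Those of most genes in the lists of related genes are not. Among cell type markers, VIM ranged from 134282 to 173162 normalized counts, ESR1 reached 15.2 and PGR 1.64, and CD3E reached 1.64. ERBB2, which encodes HER2 and shares its row with MIR4728, had 2455 to 4085 normalized counts. Its si-NEK2 libraries were all higher, with a log2 fold change of 0.53 (SE 0.12). Of the 7 MDA-MB-231 and triple-negative markers, CD44 was lower (log2 fold change -0.76), CAV1 was higher (0.69) and 5 did not pass the test. Over all genes tested, 14.3% were lower and 8.23% were higher. CD44 had 68397 normalized counts in si-CTRL replicate 1 and 43246 and 50680 in the other si-CTRL libraries. Its change without replicate 1 is not given here. The 10 blood, endothelial and fibroblast markers with a row of their own summed to between 709 and 842 in si-CTRL and between 780 and 825 in si-NEK2. PDGFRB made up most of these sums. Of the 7 genes of this list tested 1, CDH5, was lower (log2 fold change -1.06), against 14.3% of all genes tested. CDH5 was at a low level, 11.5 to 42.5 normalized counts. The 10 luminal and receptor markers with a row of their own, mostly KRT8 and KRT18, summed to between 43390 and 46942 in si-CTRL and between 49471 and 53465 in si-NEK2, and the part of either sum in the results was not tested. In bulk RNA, fewer cells of a type and less RNA per cell cannot be told apart.

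Upon NEK2 silencing, 4 factors of the mesenchymal side were lower, namely ZEB1, ZEB2, SNAI2 and FOXC2. FOXC2 fell to 23.2% and ZEB2 to 32.5% of their level in si-CTRL, while ZEB1 and SNAI2 kept 56.3% and 59.9%. SNAI1, TWIST1, TWIST2 and OVOL1 did not pass the test, and PRRX1 and GRHL2 were at or near 0 in both groups. The test was limma on log2(normalized count + 1) over the 18717 genes whose mean reached 10 normalized counts, and a regulated gene had to reach both a p-value of 0.05 or less and a change of 1.5-fold in either direction, the thresholds of the study. By this rule, 4 of the 8 factors tested were lower and 0 were higher, and the counts were the same by the unadjusted p alone and with edgeR or DESeq2 on the recovered reads. Among all genes tested, 14.3% were lower and 8.23% were higher. With p-values adjusted by Benjamini-Hochberg and held to the same 0.05 the same 4 factors were called, against 13.1% of all genes called lower and 7.47% called higher. The same 4 factors were the ones with all si-NEK2 libraries under all si-CTRL libraries, a pattern found in 26.9% of all genes tested, and 55.0% had groups that did not overlap in either direction. The median log2 fold change was -0.59 over the 8 factors and 0.01 over all genes tested.

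**Figure D1:**
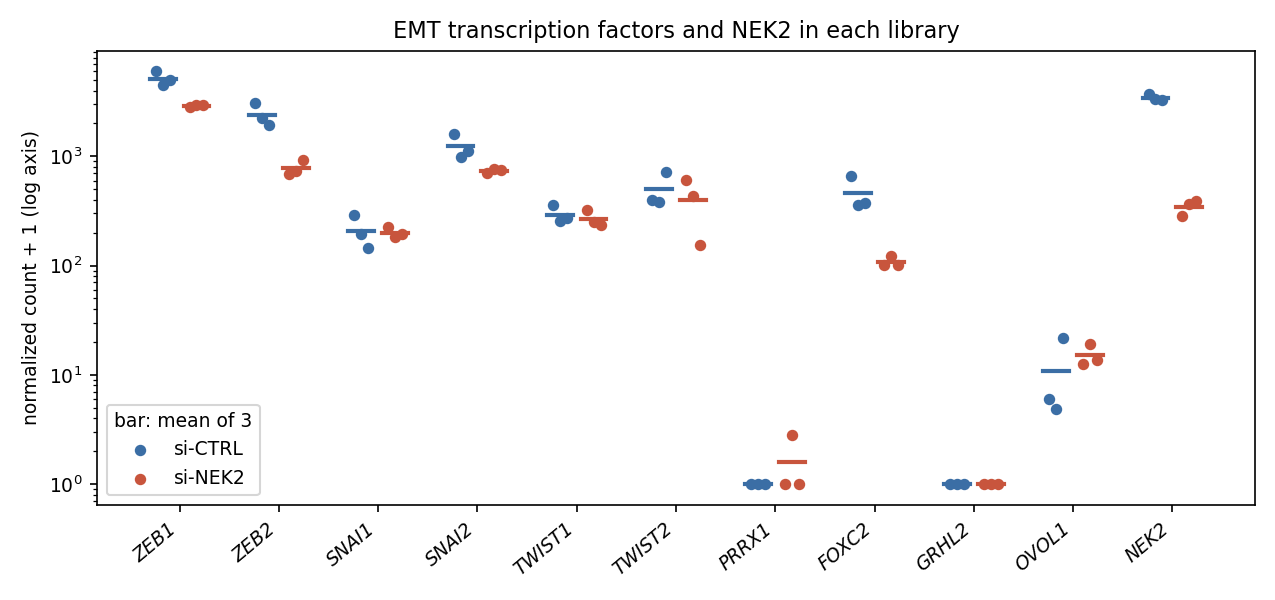
Normalized count + 1 (log axis) of the 10 factors and of NEK2 in each library, with si-CTRL in blue, si-NEK2 in red and a bar at the mean of 3 libraries. ZEB1, ZEB2, SNAI2 and FOXC2 were lower in every si-NEK2 library than in any si-CTRL library, whereas the libraries of SNAI1, TWIST1, TWIST2 and OVOL1 overlapped.

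ZEB1 (GSHG0003289, hg19 chr10:31607423-31818742), a zinc finger and homeodomain repressor of CDH1, had 5988, 4503 and 4947 normalized counts in si-CTRL and 2822, 2918 and 2959 in si-NEK2. All si-NEK2 libraries lay under all si-CTRL libraries, and they lay close to each other. The mean was 5146 ± 762 (SD, n = 3) in si-CTRL and 2900 ± 69.9 (SD, n = 3) in si-NEK2, a log2 fold change of -0.82 (SE 0.10, 95% confidence interval -1.05 to -0.59, limma, Benjamini-Hochberg adjusted p = 0.00034). Without si-CTRL replicate 1, the highest library, the log2 fold change was -0.70. Among all genes tested, 9.89% had a lower log2 fold change. ZEB1-AS1, an antisense transcript that starts beside ZEB1 and overlaps its row, had 731, 681 and 857 normalized counts in si-CTRL and 574, 602 and 544 in si-NEK2. Its log2 fold change of -0.39 (SE 0.11) was under the fold threshold.

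ZEB2 (GSHG0045821, hg19 chr2:145141942-145277958), the close relative of ZEB1, had 3068, 2225 and 1938 normalized counts in si-CTRL. In si-NEK2 the libraries stood at 692, 731 and 930. The groups did not overlap, with the lowest si-CTRL library well above the highest si-NEK2 library. The mean went from 2410 ± 587 to 785 ± 128 (SD, n = 3 each), a log2 fold change of -1.60 (SE 0.17, 95% confidence interval -2.00 to -1.21, limma, adjusted p = 0.000173). Without si-CTRL replicate 1 it was -1.42. Only 2.04% of all genes tested had a lower log2 fold change. ZEB2-AS1, whose row overlaps that of ZEB2, reached at most 3.80 normalized counts in any library.

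Within each library, the ratio of ZEB1 to ZEB2 was higher after silencing. The log2 ratio of the normalized counts was 0.96, 1.02 and 1.35 in si-CTRL and 2.03, 2.00 and 1.67 in si-NEK2, with no overlap between the groups. The difference of 0.79 had an exact permutation p of 0.1 (two-sided, adjusted p = 0.167 over 5 ratios), the smallest that 3 against 3 libraries allow, so that this test could not reach 0.05.

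SNAI2 (GSHG0029565, hg19 chr8:49830236-49834921), also known as Slug, had 1596, 991 and 1114 normalized counts in si-CTRL and 705, 762 and 750.0 in si-NEK2. The highest si-NEK2 library was under the lowest si-CTRL library, and si-CTRL replicate 1 stood above the other si-CTRL libraries. The mean went from 1234 ± 320 to 739 ± 29.8 (SD, n = 3 each), a log2 fold change of -0.71 (SE 0.16, 95% confidence interval -1.07 to -0.35, limma, adjusted p = 0.00682). Without si-CTRL replicate 1 the log2 fold change was -0.51 (limma, adjusted p = 0.000744), which is under the fold threshold, so that the call of SNAI2 rests on this library.

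SNAI1 (GSHG0018825, hg19 chr20:48599513-48605418), the Snail factor that acts early in EMT, had 287, 194 and 143 normalized counts in si-CTRL and 223, 183 and 193 in si-NEK2. All si-NEK2 libraries lay within the range of si-CTRL. The log2 fold change was -0.01 (SE 0.23, limma, adjusted p = 0.986). Over all 6 libraries, its 95% confidence interval from -0.53 to 0.52 excluded a change of 1.5-fold or more in either direction. Without si-CTRL replicate 1, the highest library, the log2 fold change was 0.26, with the sign reversed. The interval without that library is not given here, so the exclusion holds for the full set only. The log2 ratio of SNAI1 to SNAI2 was -2.47, -2.35 and -2.96 in si-CTRL and -1.66, -2.06 and -1.95 in si-NEK2. These groups did not overlap, and the difference of 0.70 had the smallest exact permutation p that is possible, 0.1 (two-sided, adjusted p = 0.167).

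TWIST1 (GSHG0028033, hg19 chr7:19155091-19157295) had 354, 253 and 269 normalized counts in si-CTRL and 322, 248 and 234 in si-NEK2. The groups overlapped, with a log2 fold change of -0.12 (SE 0.17, 95% confidence interval -0.51 to 0.26, limma, adjusted p = 0.598). TWIST2 (GSHG0017337, hg19 chr2:239756673-239832244) had 394, 381 and 723 normalized counts in si-CTRL and 600, 436 and 154 in si-NEK2. Its libraries differed widely within both groups, with the highest level in si-CTRL replicate 3 and the lowest in si-NEK2 replicate 3. Its log2 fold change of -0.48 (SE 0.46, limma, adjusted p = 0.437) had a 95% confidence interval from -1.51 to 0.56, so that a sizeable decrease was not detectable at this spread. Without si-NEK2 replicate 3 it was 0.10. The log2 ratio of TWIST1 to TWIST2 overlapped between groups, with a difference of 0.35 (exact permutation p = 0.7, two-sided, adjusted p = 0.7). How reads on sequence shared between the 2 TWIST genes were assigned is not given in the sources used here.

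FOXC2 (GSHG0011429, hg19 chr16:86600817-86602539), a forkhead factor of mesenchymal and lymphatic development, had the largest decrease of the 8 factors tested. It had 654, 360 and 373 normalized counts in si-CTRL and 101, 120.2 and 100.3 in si-NEK2. Each si-NEK2 library was far under the lowest si-CTRL library. The mean went from 462 ± 166 to 107 ± 11.4 (SD, n = 3 each), a log2 fold change of -2.05 (SE 0.22, 95% confidence interval -2.55 to -1.54, limma, adjusted p = 0.000176). Without si-CTRL replicate 1 it was -1.77. Only 0.882% of all genes tested had a lower log2 fold change. FOXC2-AS1, which overlaps the start of FOXC2 on the other strand, had 104, 122 and 163 normalized counts in si-CTRL and 67.9, 83.1 and 80.0 in si-NEK2. Its log2 fold change was -0.72 (SE 0.20, limma, adjusted p = 0.0161), in the same direction. The kit marks strand, but whether the counting used it is not given in the sources used here, so that reads of overlapping antisense partners may not be separate.

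PRRX1 (GSHG0001178, hg19 chr1:170632303-170708541) was listed at 0 in 5 libraries and had 2 reads, 1.81 normalized counts, in si-NEK2 replicate 2. GRHL2 (GSHG0029173, hg19 chr8:102504666-102681954) had 0 reads in all 6 libraries. Both were below the filter and were not tested. With counting error only, a count of 0 allows up to 3 reads, between 2.46 and 3.75 normalized counts depending on the library, so that neither a level nor a change under these floors was detectable.

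OVOL1 (GSHG0004997, hg19 chr11:65554505-65564690) was barely detected, with 4, 4 and 22 reads in si-CTRL and 14, 20 and 12 reads in si-NEK2. The groups overlapped because si-CTRL replicate 3 was the highest of all libraries. In normalized counts the mean went from 9.93 ± 9.53 to 14.1 ± 3.50 (SD, n = 3 each), a log2 fold change of 0.79 (SE 0.58, 95% confidence interval -0.53 to 2.10, limma, adjusted p = 0.308). Without si-CTRL replicate 3 it was 1.46 (limma, adjusted p = 0.0369) and passed the test, so that this library decides the call. The row of OVOL1 lies inside a row shared by NEAT1 and MIR612 (hg19 chr11:65188828-65836382) with 37245 to 48057 normalized counts, and whether reads of that row reach OVOL1 was not tested. The log2 ratio of ZEB1 to OVOL1 was 9.96, 9.85 and 7.82 in si-CTRL and 7.82, 7.26 and 7.74 in si-NEK2, a difference of -1.60 (exact permutation p = 0.2, two-sided, adjusted p = 0.25). That of ZEB1 to GRHL2 did not overlap between the groups, but moved only with ZEB1, because GRHL2 was at 0.

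**Figure D2:**
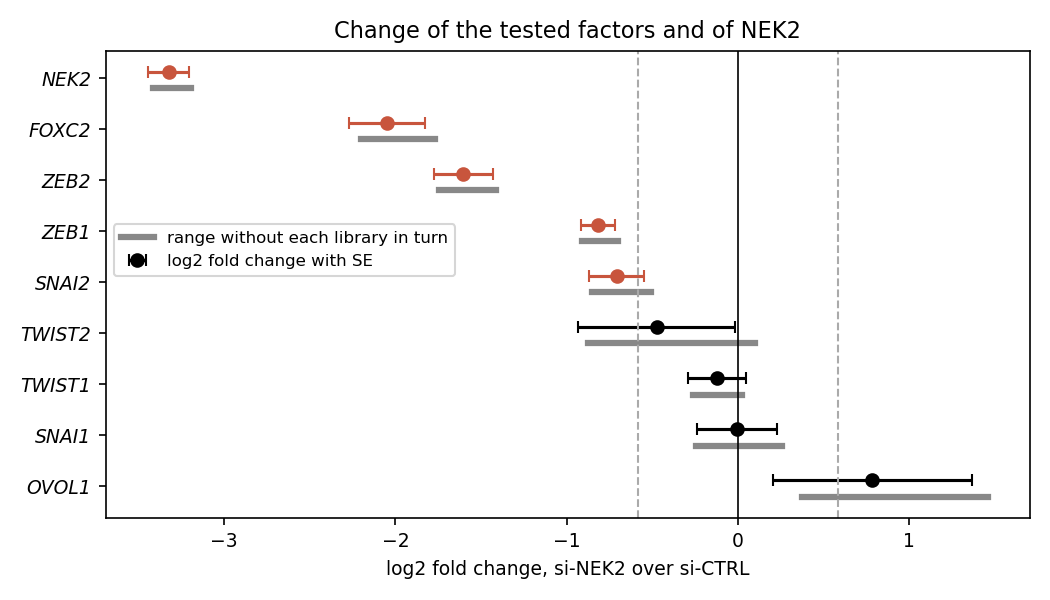
Log2 fold change of si-NEK2 over si-CTRL for NEK2 and the 8 tested factors (points, with the SE as error bars, red where the gene was called regulated), with the range obtained without each library in turn as a grey bar and dashed lines at a fold change of 1.5. The grey bars of SNAI2, TWIST2 and OVOL1 cross a dashed line and those of SNAI1, TWIST1 and TWIST2 cross 0.

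**Figure D3:**
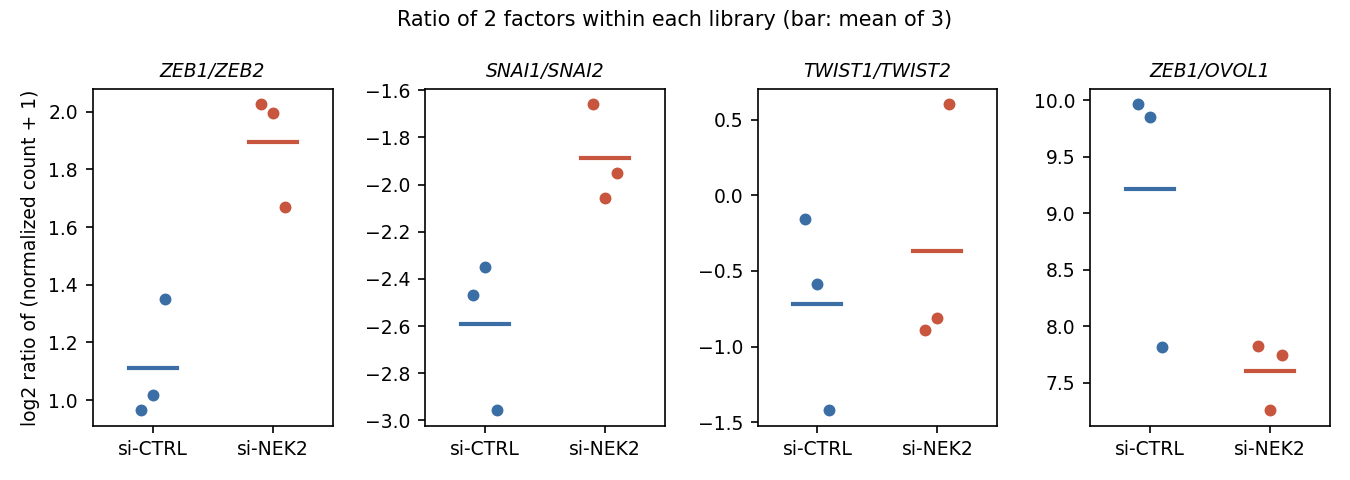
Log2 ratio of normalized counts of 2 factors within each library, with si-CTRL in blue, si-NEK2 in red and a bar at the mean of 3. The ratios of ZEB1 to ZEB2 and of SNAI1 to SNAI2 did not overlap between the groups, and those of TWIST1 to TWIST2 and of ZEB1 to OVOL1 did.

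To set the factors beside each other, their normalized counts were divided by the length of the longest coding transcript of each gene. In si-CTRL, ZEB1 had the highest level per kilobase, with a mean of 821 (range 718 to 955), followed by SNAI2 with 508 (408 to 657) and TWIST2 with 355 (271 to 515). ZEB2 with 252 (202 to 320), TWIST1 with 175 (152 to 212), FOXC2 with 159 (124 to 225) and SNAI1 with 123 (84.6 to 170) came next, and OVOL1 was last with 3.27. Neighbours in this order overlapped between libraries, except ZEB1 with SNAI2 and SNAI1 with OVOL1. In si-NEK2, ZEB1 with 463 (450.4 to 472) and SNAI2 with 304 (291 to 314) were still the highest. They were followed by TWIST2 with 282 (109 to 427), TWIST1 with 161 (140.2 to 194) and SNAI1 with 118 (108 to 132). ZEB2 then stood at 81.9 (72.2 to 97.1) and FOXC2 at 36.9 (34.6 to 41.4), both under all SNAI1 libraries, and OVOL1 at 4.65. TWIST2 overlapped with SNAI2 and with TWIST1 in si-NEK2, and the other neighbours did not overlap.

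In si-CTRL replicate 1, 6 of the factors stood above the mean of the other si-CTRL libraries, by 1.27-fold for ZEB1, 1.36-fold for TWIST1, 1.47-fold for ZEB2, 1.52-fold for SNAI2, 1.71-fold for SNAI1 and 1.78-fold for FOXC2. TWIST2 stood at 0.714 and OVOL1 at 0.403 of that mean. For ZEB1, ZEB2, SNAI2, FOXC2 and SNAI1 the changes without this library are given above.

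The genes whose pattern was most like that of each factor, by the correlation of log2(normalized count + 1) over the 6 libraries among 12909 candidates, are a description, since the libraries share the treatment. PLEK2 and FXYD5 were closest to ZEB1 (Pearson r = 0.999 for each), PTPRM and STRN to ZEB2 (0.999 for each), C1RL and CASP4 to SNAI2 (1.000 and 0.998) and ALDH1A3 and NUCKS1 to FOXC2 (1.000 and 0.999). ALDH1A3, an aldehyde dehydrogenase, had 19464, 14994 and 15323 normalized counts in si-CTRL and 8864, 9464 and 8939 in si-NEK2. PTPRM, a receptor tyrosine phosphatase, had 3555, 2734 and 2594 in si-CTRL and 1126, 1150.5 and 1422 in si-NEK2. The factors that did not pass the test had other neighbours, ATXN2L and CRAT for SNAI1 (0.993 and 0.981), GAK and DNM1P35 for TWIST1 (0.984 and 0.983) and MPST and KLHL17 for TWIST2 (0.995 and 0.993).

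Among family paralogs of the factors, 2 of 5 tested were higher by limma and 0 were lower by limma, edgeR or DESeq2. By limma, 8.23% of all genes tested were higher and 14.3% lower. The median log2 fold change of the paralogs was 0.26. FOXC1, the closest paralog of FOXC2, moved the other way from it. It had 2139.7, 1585 and 1758 normalized counts in si-CTRL and 2950.1, 2838 and 2923 in si-NEK2, with all si-NEK2 libraries above all si-CTRL libraries and a log2 fold change of 0.68 (SE 0.11, limma, adjusted p = 0.00114). It fell under the fold threshold without si-CTRL replicate 2 (0.58) and with scaling to equal totals (0.55). SNAI3, named after its values were seen, was higher by 1.26 on the log2 scale at 2.50 to 17.2 normalized counts (limma, adjusted p = 0.0723), and without any 1 of the 6 libraries 1 paralog was called. GRHL1 and GRHL3 did not pass the test (log2 fold changes of 0.19 and 0.26), PRRX2 had a log2 fold change of -0.10, and OVOL2 was at 0 in all libraries.

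Of other transcription factors linked to EMT, 3 of 21 tested were lower and 3 were higher, against 14.3% and 8.23% of all genes tested. Their median log2 fold change was -0.13. FOSL1, an AP-1 subunit, had 59386, 39866 and 43691 normalized counts in si-CTRL and 22840, 21684 and 21427 in si-NEK2, a log2 fold change of -1.09 (SE 0.13, limma, adjusted p = 0.000279). Its highest library was si-CTRL replicate 1, and the change without that library is not given here. Like OVOL1, FOSL1 lies inside the row shared by NEAT1 and MIR612, and whether reads of that row reach FOSL1 was not tested. LEF1, a partner of beta-catenin, changed by -0.96 (SE 0.16) and WWTR1, the Hippo pathway coactivator TAZ, by -0.60 (SE 0.16). The change of WWTR1 was just past the fold threshold. WWTR1 had 3686 normalized counts in si-CTRL replicate 1 and 2374 and 2525 in the other si-CTRL libraries. Its change without replicate 1 is not given here. Leaving out each library in turn gave 2 to 3 lower genes in this list. The genes that were higher were ID1, ID2 and ID3, which encode inhibitors of basic helix-loop-helix factors such as the E proteins that partner with TWIST1. ID3 rose from 3077 ± 502 to 8752 ± 1629 (SD, n = 3 each; log2 fold change 1.503, SE 0.15) and ID2 from 375 ± 43.4 to 930.4 ± 63.8 (1.31, SE 0.11), without overlap. ID1 rose by 0.70 (SE 0.20) with overlapping libraries, and was under the fold threshold without si-NEK2 replicate 1 (0.54) and with scaling to equal totals (0.58), which shifted the median of all genes from 0.01 to -0.11. The E protein genes TCF3, TCF4 and TCF12 did not pass the test, with log2 fold changes between -0.29 and 0.03.

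Other epithelial transcription factors moved in both directions, with 4 of 10 tested higher, 2 lower and a median of -0.01. The shares over all genes tested were 8.23% higher and 14.3% lower. FOXA1, the pioneer factor of luminal breast cells, had 841, 786 and 851 normalized counts in si-CTRL and 1921, 1946 and 1687 in si-NEK2, a log2 fold change of 1.16 (SE 0.09, limma, adjusted p = 2.69e-05). ELF3, an epithelial ETS factor, rose from 63.5 ± 24.5 to 162 ± 19.1 (log2 fold change 1.39, SE 0.26). KLF5, a zinc finger factor of epithelia, rose by 0.69 (SE 0.17). TFAP2C fell by 0.63 (SE 0.12), and EHF, an ETS factor close to ELF3 and named after its values were seen, fell by 1.07 (SE 0.23). Without si-CTRL replicate 1, or without si-NEK2 replicate 2, only 1 of these factors was called lower.

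CDH1, EPCAM and ESRP1, textbook targets of ZEB1 and the Snail factors, were barely detected in either group. CDH1, which encodes E-cadherin, had 0, 3.87 and 0.951 normalized counts in si-CTRL and 4.91, 5.42 and 1.07 in si-NEK2. EPCAM stayed at or under 12.7 and ESRP1 at or under 3.80. They belong to 10 of 28 epithelial target genes that fell below the filter, none of them above 16.3 in any library. Of the 18 epithelial target genes tested, 8 were higher and 3 were lower, against 8.23% and 14.3% of all genes tested. Their median log2 fold change was 0.46. MAL2, a transcytosis protein, rose from 276 ± 30.5 to 773 ± 50.8 normalized counts (log2 fold change 1.49, SE 0.11) and PATJ, a polarity protein of tight junctions, from 851 ± 84.5 to 1655 ± 103 (0.96, SE 0.09). DSP, which encodes desmoplakin, rose by 0.82 (SE 0.09) and TJP3 by 1.05 (SE 0.23, from 33.2 ± 7.47 normalized counts). Claudin gene CLDN4 fell by 0.74 (SE 0.17), MARVELD2 by 0.63 (SE 0.15), and ESRP2, an epithelial splicing regulator whose row is shared with MIR6773, by 1.00 (SE 0.13). MARVELD2 had 217 normalized counts in si-CTRL replicate 1 and 163 and 181 in the other si-CTRL libraries. Its change without replicate 1 is not given here. Leaving out each library in turn gave 2 to 3 lower genes in this list. The keratin genes KRT18, KRT8 and KRT19 had log2 fold changes of -0.02, 0.37 and 0.55, all under the fold threshold.

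Among mesenchymal genes, 10 of 31 tested were lower and 4 were higher, against 14.3% and 8.23% of all genes tested. Their median log2 fold change was -0.28. NT5E, which encodes the ectoenzyme CD73, had 12266, 7848 and 10390 normalized counts in si-CTRL and 2506, 2615 and 2772 in si-NEK2, a log2 fold change of -1.93 (SE 0.14, limma, adjusted p = 2.75e-05). CDH11, a cadherin of mesenchyme, changed by -1.22 (SE 0.13) and ITGB3, whose row is shared with EFCAB13, by -1.33 (SE 0.09). VIM, which encodes vimentin, went from 157264 ± 14370 to 138731 ± 4069 normalized counts (log2 fold change -0.18, SE 0.08, limma, adjusted p = 0.101) and did not pass the test. Nor did FN1, which encodes fibronectin (-0.06, SE 0.09, adjusted p = 0.62). CDH2, which encodes N-cadherin, had 26951, 23469 and 22320 normalized counts in si-CTRL and 36782, 37390 and 40385 in si-NEK2 (log2 fold change 0.66, SE 0.08), and fell under the fold threshold with scaling to equal totals (0.53) and with quantile normalization (0.52). S100A4 rose by 1.97 (SE 0.24) and COL1A2 by 0.92 (SE 0.23, from 39.0 ± 9.86 normalized counts). COL3A1, whose row is shared with MIR3606, rose by 1.91 (SE 0.23), also from a low level, 34.7 ± 9.85 normalized counts.

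**Figure D4:**
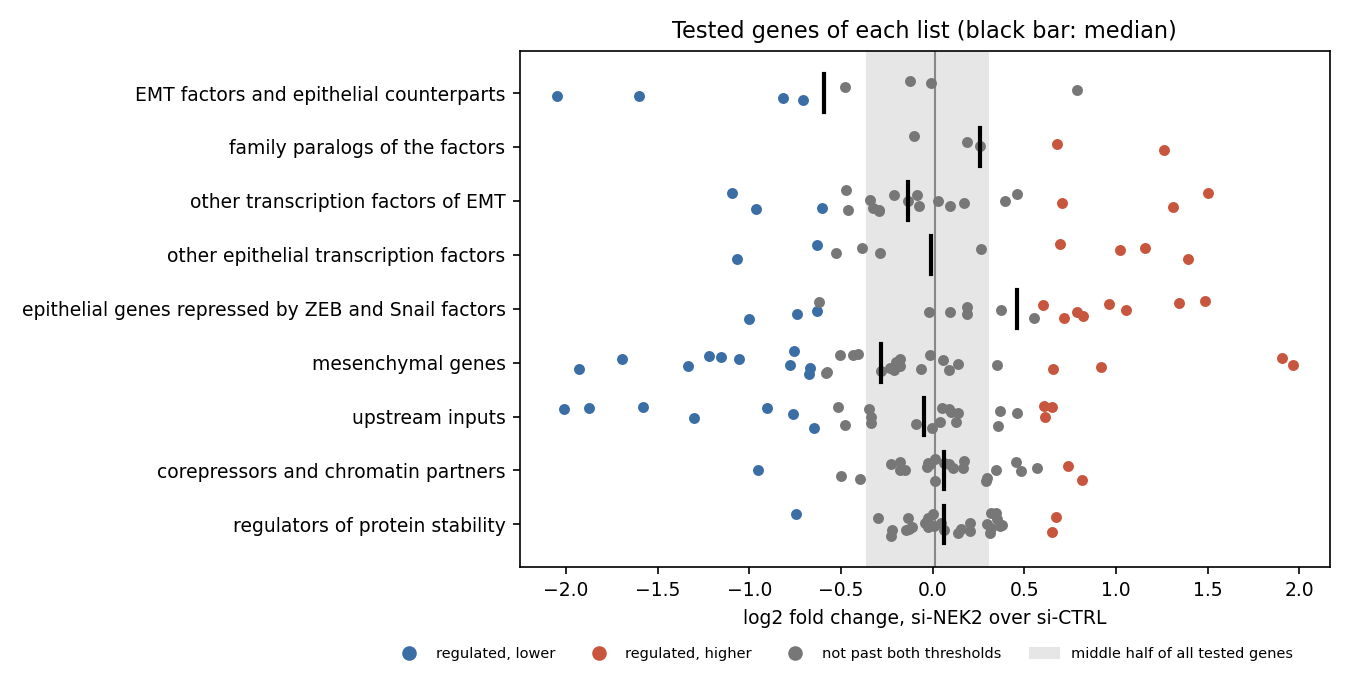
Log2 fold change of si-NEK2 over si-CTRL for each tested gene (points) of the 10 factors and of 8 lists of related genes, blue for regulated lower, red for regulated higher and grey for the rest, with a black bar at the median of the list and a shaded band from the first to the third quartile of all genes tested, -0.36 to 0.30. The median of the factors lay at -0.59 and that of the epithelial target genes at 0.46.

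Of genes in signalling upstream of these factors, inducers and inhibitors such as SMAD7 together, 7 of 26 tested were lower and 3 were higher. Over all genes tested these shares were 14.3% and 8.23%, and the median of the list was -0.05. TGFBR1, the type I receptor for TGF-beta, had 1631, 1977 and 1979 normalized counts in si-CTRL and 496, 544 and 480.1 in si-NEK2, a log2 fold change of -1.87 (SE 0.10, limma, adjusted p = 6.7e-06). The interleukin 6 family cytokines IL6 and LIF changed by -2.01 (SE 0.18) and -1.58 (SE 0.09), and GLI1, a Hedgehog effector, by -1.30 (SE 0.18). CTNNB1, which encodes beta-catenin, rose by 0.65 (SE 0.08), TGFBR3 by 0.61 (SE 0.07) and HIF1A by 0.61 (SE 0.08). Across 13 alternative settings of processing or threshold, 0 to 3 genes were higher, and 4 settings moved the count by more than 1.5-fold. With scaling to equal totals 0 genes of this list were called higher, and without si-CTRL replicate 3 the count was 1. TGFBR2, SMAD2 and SMAD3 did not pass the test, with log2 fold changes between -0.0049 and 0.13. SMAD4, whose row is shared with ELAC1, had 0.46 (SE 0.08), under the fold threshold, with all si-NEK2 libraries higher. TGFB3 was called lower (-0.90, SE 0.14).

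Among corepressors and chromatin partners of the factors, 1 of 25 tested was lower and 2 were higher, with a median of 0.06. Both this list and the next stand beside 14.3% lower and 8.23% higher over all genes tested. KDM1A, a histone demethylase recruited by Snail, had 11443, 11324 and 11271 normalized counts in si-CTRL and 19229, 19623 and 20981 in si-NEK2 (log2 fold change 0.81, SE 0.06, limma, adjusted p = 2.76e-05). RING1, a Polycomb ubiquitin ligase, rose by 0.74 (SE 0.11), and KAT2B, a histone acetyltransferase, changed by -0.95 (SE 0.11). The count of lower genes in this list was 2 without si-CTRL replicate 2 and also without si-CTRL replicate 3. Of the regulators of the stability of these proteins, 1 of 29 tested was lower and 2 were higher, with a median of 0.06. FBXW7, a substrate receptor of a ubiquitin ligase, changed by -0.75 (SE 0.08), FBXL5 by 0.67 (SE 0.09) and the phosphatase gene CTDSP2 by 0.65 (SE 0.08). Without si-CTRL replicate 1, 1 gene of this list was higher. Levels of the proteins themselves were not measured in these libraries.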

How the data were processed

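The deposited table gives, per the authors' processing notes, a gene signal for each library: reads divided by the DESeq2 size factor (normalized counts), on hg19 and the FAST DB annotation, after alignment with STAR 2.4.0. Which program counted the reads, and whether it used strand, is not given in the sources used here. All values were whole multiples of 1 read within a tolerance of 0.01, so reads were recovered. Differences were tested with limma 3.58.1 (R 4.3.3, eBayes with an intensity trend, 3 against 3 libraries) on log2(value + 1), and within-library ratios with exact permutation tests (scipy 1.17.1). The alternatives were pseudocounts of 0.1 and 5, filters, scalings, a replicate block, leaving out each library, and edgeR 4.0.16 and DESeq2 1.42.0 on recovered reads. The code was tested on simulated data. Genes named were the 10 factors, up to 4 genes per direction and list whose mean reached 50 normalized counts, CDH1, EPCAM, ESRP1, VIM, CDH2 and FN1, and the 2 nearest genes of each factor; not all of them are reported here. Further genes of the lists, such as SMAD2 and KRT8, were named outside this rule, after their values were seen. The factors and lists were chosen with earlier results of these data known. Read depth sets the precision: floors of 3 reads cover counting error only. Seed matches were counted in the longest 3′ UTR of the GENCODE annotation.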

Additional observations from a re-analysis of the deposited data

How the results depend on the processing

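ZEB1, ZEB2 and FOXC2 stayed lower and past the thresholds under all alternatives run that keep the fold threshold of 1.5, with log2 fold changes from -0.95 to -0.70, -1.75 to -1.42 and -2.20 to -1.77. At a 2-fold threshold, 1637 genes were called in place of 4213, and 2 of the factors, ZEB2 and FOXC2. Leaving out each library in turn gave 3913 to 4436 genes and 3 to 5 factors, 3 without si-CTRL replicate 1, where SNAI2 was lost, and 5 without si-CTRL replicate 3, where OVOL1 joined. The log2 fold changes then ranged from -0.85 to -0.51 for SNAI2, from -0.25 to 0.26 for SNAI1, from -0.26 to 0.0243 for TWIST1, from -0.88 to 0.10 for TWIST2, from 0.37 to 1.46 for OVOL1, and from -0.16 to 0.0102 for FN1, and the difference in the log2 ratio of TWIST1 to TWIST2 from -0.13 to 0.64. With quantile normalization SNAI1 was at 0.16 and TWIST1 at 0.0378, reversed in sign and under the thresholds, and the cause was not tested. OVOL1 could not be fitted under the filter that asks for a mean of 50. With the replicate number as a block, ZEB1 was at -0.82 and 4 factors and 4084 genes were called, and no factor changed its call. Deviations of same-numbered libraries correlated at -0.09, 0.05 and -0.15, and those of differently numbered libraries between -0.12 and 0.18. This check showed no pairing by number, but with so few libraries it could not exclude one. Of the 2 factors with 0 or few reads, PRRX1 and GRHL2, depth allows no statement on a change.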
